A study of Mus musculus with 91 samples.

Results

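The collagen genes of single mouse bone marrow stromal cells are described here, gene by gene and cell by cell. They were taken as all rows of the deposited count table whose symbol names a collagen alpha chain and that held at least 10 counts over the 91 cells, which gave 31 of the 16580 genes in the table. A list of 44 mouse collagen chain genes was used to sort them into structural classes, and 13 of these were not analysed here. C57BL/6 mouse bones were crushed, and marrow cells from the fluid were stained, index-sorted one to a well and turned into full-length Smart-seq2 libraries, 1 per cell. Cells of all gates were CD45-, Ter119-, CD41- and CD71-, which leaves out most blood cells, stained by Vibrant Dye, which served to leave out debris, and VCAM1+, after a cell adhesion protein found on stromal cells. The VCAM1+CD61+ gate gave 39 cells (plates of 17 and 22 cells) and the VCAM1+CD61- gate 40 cells (plates of 24 and 16 cells), CD61 being the beta chain of an integrin. A further 9 cells came from a VCAM1+ gate without a CD61 step and are called VCAM1+ cells below. The age and sex of the mice are not given in the labels, and no label names an animal. Each gate was therefore taken as 1 sample, no test was run and no p-value is given. Another 3 cells have a title that names a gate other than their sorting label, and no comparison uses them. A cell had 507713 to 6702475 counts, with a median of 1887613 for CD61+ cells, 2368345 for CD61- cells and 4004927 for VCAM1+ cells. Intervals are exact 95% intervals for counting error only, and reads of these libraries are not independent molecules. No CD61+ or CD61- plate mixed gates, so a difference between plates and one between gates cannot be told apart.

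Collagens are secreted as trimers of alpha chains, and the chains that join decide the structure. Fibril-forming collagens make the tensile fibres of bone and connective tissue, type I above all, while type III fills the reticular fibres of marrow and type II belongs to cartilage. Type IV forms the sheet-like network of basement membranes, type VIII a short-chain network, and type VI beaded filaments around cells. FACIT collagens attach to the surface of fibrils, transmembrane collagens stay anchored in the plasma membrane, and multiplexins lie next to basement membranes. In marrow, CXCL12-abundant reticular (CAR) cells are known for Cxcl12, the chemokine that holds blood stem cells, and cells of the bone-forming lineage for Spp1, which encodes osteopontin.

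The start regions of the 2 type IV genes are shown first, because Col4a1 and Col4a2 lie head to head and were counted together in most cells that had either. In the RefSeq windows of 250 bases before to 50 bases after each start (build GRCm38.p6), Col4a1 is read from the minus strand at chr8:11312777-11313076 and Col4a2 from the plus strand at chr8:11312555-11312854. The capitals mark the 78 bases that both windows share, at chr8:11312777-11312854, and they read as reverse complements of each other.
Col4a1: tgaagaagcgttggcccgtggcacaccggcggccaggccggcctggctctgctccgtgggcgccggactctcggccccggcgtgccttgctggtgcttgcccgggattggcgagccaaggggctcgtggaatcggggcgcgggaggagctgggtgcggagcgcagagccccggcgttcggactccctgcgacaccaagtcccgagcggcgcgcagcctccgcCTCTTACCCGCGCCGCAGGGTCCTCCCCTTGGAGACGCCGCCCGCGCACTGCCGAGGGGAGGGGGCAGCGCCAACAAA
Col4a2: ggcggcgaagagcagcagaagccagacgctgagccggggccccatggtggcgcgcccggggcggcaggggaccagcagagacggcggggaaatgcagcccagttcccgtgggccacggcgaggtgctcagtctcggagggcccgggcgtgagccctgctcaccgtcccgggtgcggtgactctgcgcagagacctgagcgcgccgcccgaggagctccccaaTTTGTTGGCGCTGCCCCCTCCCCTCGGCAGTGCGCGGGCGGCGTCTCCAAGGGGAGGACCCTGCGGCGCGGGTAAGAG
The annotated start sites are 21 bases apart and the transcripts overlap by 22 bases on opposite strands. Smart-seq2 does not mark strand, so reads from those bases cannot be assigned to 1 of the 2 genes.

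Next come the windows of Col1a2, the type I chain counted in most cells, and of Col8a1. Over 88 cells, Col8a1 had the highest rank correlation with Cxcl12 among the members. By Pearson correlation of log2 levels Col4a1 stood higher, at 0.57 against 0.49 for Col8a1. Col1a2 lies on the plus strand (window chr6:4505368-4505667) and Col8a1 on the minus strand (window chr16:57754688-57754987), both 5′ to 3′ in the direction of the gene. The RefSeq start of Col1a2 used here lies inside the GENCODE span of the gene given below, downstream of its first base. The capitals mark matches of 4 short motifs, each searched on both strands: the CCAAT box, the GC box as GGGCGG, the TATA box as TATAAA, and ACCACA as a core of the sites that Runx factors bind.
Col1a2: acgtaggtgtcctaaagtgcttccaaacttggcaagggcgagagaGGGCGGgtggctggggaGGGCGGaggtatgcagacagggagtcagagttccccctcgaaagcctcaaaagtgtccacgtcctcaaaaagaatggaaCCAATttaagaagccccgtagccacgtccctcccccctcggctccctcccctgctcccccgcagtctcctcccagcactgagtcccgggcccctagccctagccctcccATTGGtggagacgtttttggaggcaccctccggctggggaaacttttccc
Col8a1: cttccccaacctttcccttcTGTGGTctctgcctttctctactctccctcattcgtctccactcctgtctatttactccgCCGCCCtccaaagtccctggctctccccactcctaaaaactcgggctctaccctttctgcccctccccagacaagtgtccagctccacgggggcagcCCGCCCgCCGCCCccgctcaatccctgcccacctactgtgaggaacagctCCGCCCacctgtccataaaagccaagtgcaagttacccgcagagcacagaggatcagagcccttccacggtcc
Of the 31 members, 24 matched the RefSeq table, with 26 windows. GGGCGG was present in 20 of these 26 windows, against 35.7% of all 32851 windows of the table. CCAAT was present in 9 of them, against 37.4%, TATAAA in 3, against 13.6%, and ACCACA in 2, against 16.8%. These matches are letters in a window, not measured sites. Member windows ran from 37.7% to 75% G and C, most of them above the median of 52.7% over all windows. The shares were not adjusted for this.

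Summed over cells, collagens took more of the counts in CD61+ cells than in CD61- cells. The 31 members together reached 5821 counts per 1000000 counts (CPM) in CD61+ cells and 1897 CPM in CD61- cells, a ratio of 3.07-fold (3.05 to 3.08). By plate the sums were 5078 and 6591 CPM in CD61+ cells, against 2140 and 1570 CPM in CD61- cells, so the plates of the gates did not overlap. The 9 VCAM1+ cells reached 12637 CPM, of which VCAM1+ cell 5 gave 61.7%, and 5855 CPM without that cell. Within single cells the collagen share of counts was 0.0252% to 2.40% in CD61+ cells (median 0.314%) and 0.00835% to 0.401% in CD61- cells (median 0.162%), so single cells of the gates overlapped. The number of members at 10 CPM or more in a cell, the level used below for a cell that held a member, was 3 to 16 in CD61+ cells (median 11), 2 to 13 in CD61- cells (median 9) and 0 to 18 in VCAM1+ cells (median 9).

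Most of that difference lay in the fibril chains. All fibril members summed to 4583 CPM in CD61+ cells and 764 CPM in CD61- cells, 6.00-fold (5.95 to 6.05). On the scale of CPM per kb of transcript, fibril chains made up 78.2% of the collagen level in CD61+ cells and 38.02% in CD61- cells, with 89.3% in VCAM1+ cells (73.2% without VCAM1+ cell 5). FACIT chains summed to 243 CPM in CD61+ cells and 91.1 CPM in CD61- cells (2.67-fold, 2.60 to 2.74), and transmembrane chains to 66.5 CPM in CD61+ cells and 11.3 CPM in CD61- cells (5.87-fold, 5.49 to 6.28). The sheet and filament classes stood level: type IV chains summed to 264 CPM in CD61+ cells and 266 CPM in CD61- cells, and type VI chains to 429 CPM in CD61+ cells and 426 CPM in CD61- cells. Type VIII chains were lower, at 219 CPM in CD61+ cells and 320 CPM in CD61- cells.

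Counted one by one, 16 of the 30 members with at least 10 counts over the 4 plates were at least 2-fold higher in CD61+ cells (53.3%), against 22.1% of all 15568 genes so tested. At least 2-fold lower were 3 members (10%), against 18.9% of all genes, and 11 members lay within 2-fold. Both CD61+ plates lay above both CD61- plates for 11 members (36.7%), against 19.9% of all genes, and below them for 2 (6.67%), against 16.9%. The plates overlapped for 17. Col11a2, Col4a6 and Col15a1 entered this comparison with no count in CD61- cells, so they could only come out higher. Col14a1 had no count in either gate and was not compared. The median log2 ratio of CD61+ over CD61- was 1.08 over the members and 0.03 over all genes. The members' median was 0.47 without CD61+ plate 1, 0.50 without CD61+ plate 2, 1.70 without CD61- plate 1, 0.70 without CD61- plate 2, and 0.48 with every cell thinned to 500000 counts.

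**Figure D1:**
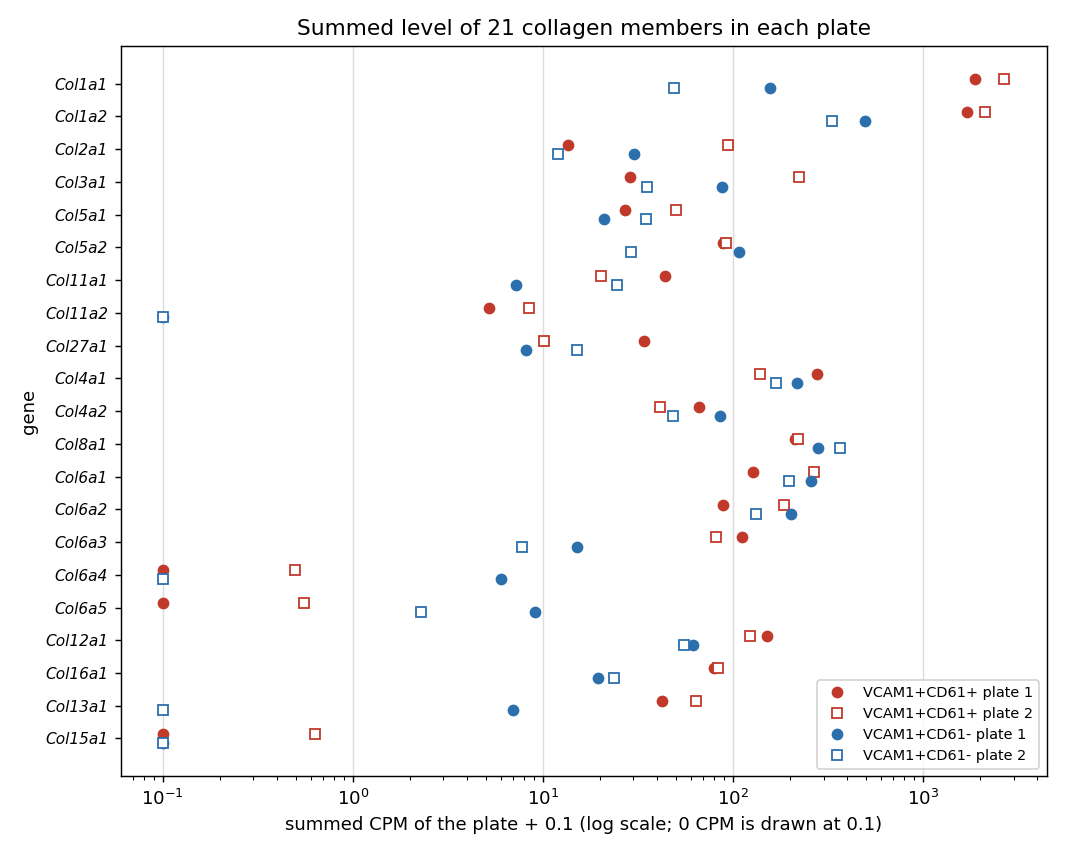
Summed CPM (plus 0.1, log axis) of the 21 members named in full, in VCAM1+CD61+ plates (red, filled circle plate 1, open square plate 2) and VCAM1+CD61- plates (blue, same symbols). Col1a1, Col1a2, Col6a3, Col12a1, Col16a1, Col13a1 and Col11a2 have both CD61+ plates to the right of both CD61- plates, while Col8a1 and Col6a5 have them to the left.

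Type I collagen, the main fibril of bone matrix, showed the largest difference among the abundant members, and it was larger for 1 chain than for the other. Col1a1, which encodes the alpha 1 chain (chr11:94936224-94953042, plus strand, mm10), had 1878 and 2684 CPM in the CD61+ plates, against 156 and 48.9 CPM in the CD61- plates. Over the gates that made 2274 CPM in CD61+ cells and 111 CPM in CD61- cells, a ratio of 20.6-fold (20.2 to 21.0). Single CD61+ cells held 0 to 14135 CPM (median 226) and single CD61- cells 0 to 649 CPM (median 38.2). The gates differed more in the level of the gene than in the number of cells that held it. At 10 CPM or more it was held by 32 of 39 CD61+ cells and 25 of 40 CD61- cells. No count was found in 6 CD61+ cells and 10 CD61- cells. CD61+ cell 36 alone gave 30.3% of the CD61+ counts, and its 2 highest cells gave more than all the others together. Leaving out any 1 cell kept the ratio between 15.4-fold and 23.7-fold, and without CD61- plate 1 its log2 value was 5.54, against 4.36 with all plates.

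Col1a2 (chr6:4504814-4541544, plus strand), the alpha 2 chain, was the most evenly spread of the abundant members. It was held by 37 of 39 CD61+ cells and 39 of 40 CD61- cells. Its plates had 1703 and 2129 CPM in CD61+ cells, against 497 and 333 CPM in CD61- cells, and the gates 1912 CPM in CD61+ cells and 427 CPM in CD61- cells (4.48-fold, 4.43 to 4.53). Single CD61+ cells ranged from 0 to 7917 CPM (median 842) and CD61- cells from 0 to 1069 CPM (median 411). No single cell or plate moved this ratio by more than 1.5 times.

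Per kb of transcript the balance of the 2 type I chains differed between the gates. Col1a1 over Col1a2 was 1.07 (1.07 to 1.08) in CD61+ cells and 0.234 (0.229 to 0.239) in CD61- cells. It was 1.07 (1.06 to 1.08) in VCAM1+ cells, but 0.433 there without VCAM1+ cell 5. Over the single cells that held both chains its median was 0.303. Of the 88 cells, 62 held both chains, 20 held Col1a2 without Col1a1, 1 held Col1a1 without Col1a2 and 5 held neither. The plot of chain partners shows these cells at the low end of Col1a1, where the Col1a2 level reaches 2508 CPM. The rank correlation (Spearman's rho) of the chains over 88 cells was 0.65, and within plates it was 0.63 and 0.86 in CD61+ cells and 0.38 and 0.10 in CD61- cells. Cells of a plate share their library preparation and differ in depth, so each rho here is a description and carries no p-value.

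**Figure D2:**
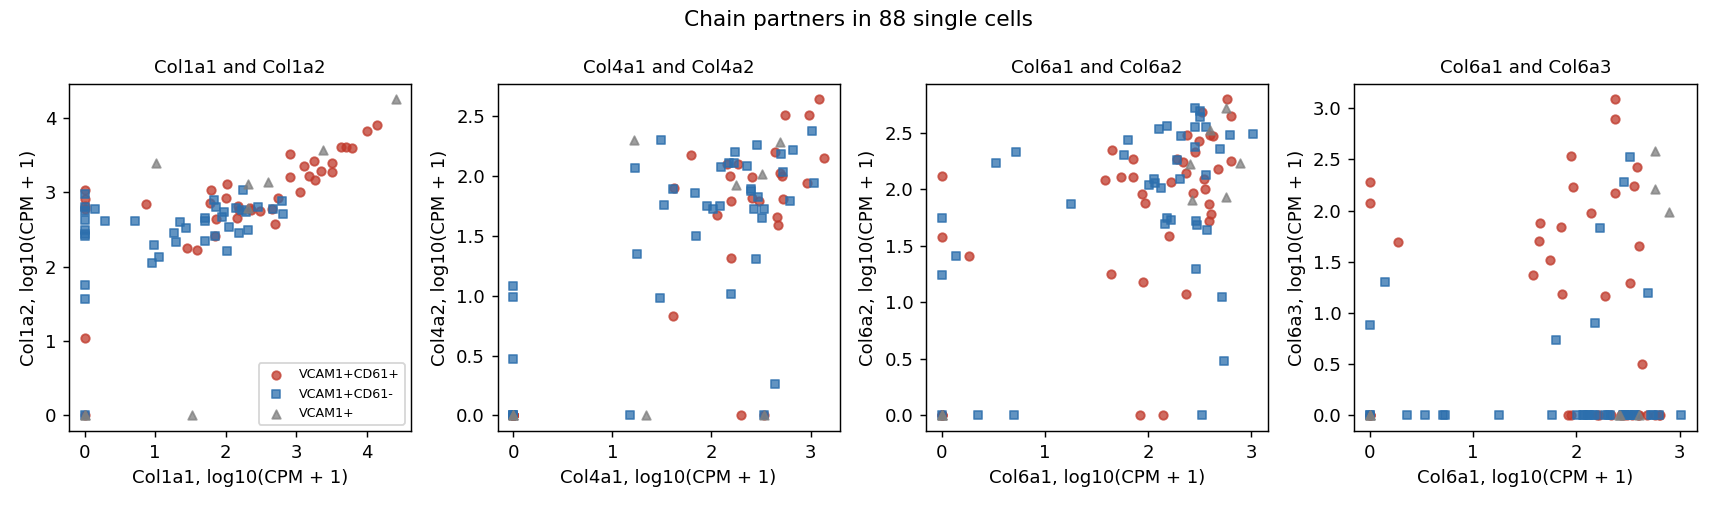
Level of 4 pairs of chains in each of 88 cells, both axes log10(CPM + 1), with CD61+ cells as red circles, CD61- cells as blue squares and VCAM1+ cells as grey triangles. Col1a1 with Col1a2 and Col4a1 with Col4a2 lie along a diagonal (rho 0.65 each), Col6a1 with Col6a2 forms a looser cloud (rho 0.48), and Col6a1 with Col6a3 does not line up (rho -0.01).

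Type III collagen, which forms reticular fibres, was highest in another set of cells. Col3a1 had 28.6 and 222 CPM in the CD61+ plates, against 88.0 and 35.3 CPM in the CD61- plates, so the plates overlapped. Only 9 of 39 CD61+ cells held it, against 14 of 40 CD61- cells and 5 of 9 VCAM1+ cells, and the median cell of both CD61 gates was at 0. CD61+ cell 20 alone held 3511 CPM and 70.5% of the CD61+ counts. The summed ratio of 1.89-fold (1.83 to 1.95) became 0.571 without that cell. The 3 cells highest in Col3a1 were VCAM1+ cell 2 (5343 CPM), VCAM1+ cell 9 (3564 CPM) and CD61+ cell 20, and all of these held Dcn, the fibroblast proteoglycan decorin, at 8161 CPM or more and under 1 CPM of both Cxcl12 and Spp1. Col3a1 was not confined to such cells. Of cells with Cxcl12 at 1000 CPM or more and Spp1 below it, 4 of 13 CD61+, 13 of 31 CD61- and 2 of 3 VCAM1+ cells held it. Next in level was VCAM1+ cell 3 (1122 CPM), with 14187 CPM of Cxcl12 and 35.4 CPM of Dcn. Without the 9 CD61+ and CD61- cells that held Dcn at 1000 CPM or more, a grouping made after the data were seen, the log2 ratio of Col3a1 was -2.53, against 0.92 with them, and that of all members summed was 1.39, against 1.62. Over the whole fibroblast marker list, 8 of 8 genes were in the table. They summed to 2820 CPM in CD61+ cells and 499.8 CPM in CD61- cells, with 13687 CPM in VCAM1+ cells. Single cells set much of this: the median cell had 582 CPM in CD61+ cells and 360 CPM in CD61- cells, and the highest CD61+ cell 62894 CPM. Of the 8 genes, 4 were higher and 1, Fbln1, lower in both CD61+ plates, against 19.9% and 16.9% of all genes.

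Type II collagen, the fibril of cartilage, appeared in few cells, and the 12 cells that held 10 CPM or more all held Spp1 at 19017 CPM or more. Col2a1 was held by 10 of 39 CD61+ cells (highest 516 CPM), by 2 of 40 CD61- cells (highest 658 CPM) and by 0 of 9 VCAM1+ cells. Its plates had 13.5 and 94.2 CPM in CD61+ cells, against 30.2 and 11.99 CPM in CD61- cells, and overlapped. The ratio of the gates was 2.37-fold (2.25 to 2.5), but CD61- cell 2 gave 77.0% of the CD61- counts, and the ratio was 10.05-fold without it, while the log2 ratio was -0.73 without CD61+ plate 2. Of 10 chondrocyte markers, 4 were in the table: Comp, a cartilage matrix protein also made by other connective tissue, had 674 CPM in CD61+ cells and 253 CPM in CD61- cells, Sox9, the cartilage transcription factor, 10.3 CPM in CD61+ cells and 24.0 CPM in CD61- cells, Matn4 0.12 CPM in CD61+ cells and 5.72 CPM in CD61- cells, and Hapln1 0.04 CPM in CD61+ cells and no count in CD61- cells.

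The minor fibril chains of type V and type XI, which start and thin the main fibrils, had lower levels per kb than type I and smaller ratios between the gates, apart from the rare Col11a2. Col5a2 had 88.6 and 91.4 CPM in the CD61+ plates, against 108 and 28.9 CPM in the CD61- plates, and was held by 31 of 39 CD61+ cells (median 66.2 CPM) and 19 of 40 CD61- cells (median 8.18 CPM). Its summed ratio was 1.21-fold, and CD61- cell 9 held the highest level of any cell, at 1257 CPM. Without CD61- plate 1 its log2 ratio was 1.64, against 0.28. Col5a1 had 26.95 and 50.3 CPM in the CD61+ plates, against 20.8 and 34.8 CPM in the CD61- plates, a ratio of 1.44-fold (1.36 to 1.52), with 25 of 39 CD61+ cells and 15 of 40 CD61- cells holding it. Although both chains enter type V trimers, they were not tied across cells: 27 cells held both, 17 Col5a1 alone and 30 Col5a2 alone, with a rho of 0.08.

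Col11a1 had 43.7 and 20.1 CPM in the CD61+ plates, against 7.13 and 24.5 CPM in the CD61- plates, and was highest in VCAM1+ cells at 180 CPM. Its ratio of 2.21-fold (2.07 to 2.36) was 1.51-fold without CD61+ cell 36 and 3.60-fold without CD61- cell 32. Col11a2 was met in 4 of 39 CD61+ cells and 1 of 9 VCAM1+ cells and in 0 of 40 CD61- cells. Unseen, it could still occur in up to 7.5% of CD61- cells if cells were independent draws, which was not shown. It had 5.12 and 8.39 CPM in the CD61+ plates and no count in the CD61- plates, which against a floor of 3 counts over the CD61- gate is 206-fold (counting interval from 167-fold upward) and, without CD61+ cell 36, 136-fold higher in CD61+ cells. All 5 cells with Col11a2 held Spp1 at 1000 CPM or more and Cxcl12 below it. Col27a1, the type XXVII fibril chain, had 34.02 and 10.04 CPM in the CD61+ plates, against 8.08 and 15.1 CPM in the CD61- plates, and its log2 ratio of 1.01 was -0.14 without CD61+ plate 1.

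Type IV collagen differed little between the gates and sharply between cells. Col4a1 (chr8:11198423-11312826, minus strand), the alpha 1 chain of basement membranes, had 277 and 140 CPM in the CD61+ plates, against 217 and 169 CPM in the CD61- plates. It was held by 25 of 39 CD61+ cells (0 to 1365 CPM, median 152) and 34 of 40 CD61- cells (0 to 1079 CPM, median 153), and its summed ratio was 1.07-fold (1.04 to 1.09). Without CD61+ cell 34 the ratio was 0.872, so neither gate was steadily higher. Col4a2 (chr8:11312805-11449287, plus strand) had 66.1 and 41.1 CPM in the CD61+ plates, against 85.3 and 48.4 CPM in the CD61- plates, and was held by 22 of 39 CD61+ cells and 30 of 40 CD61- cells. Its log2 ratio of -0.37 was 0.15 without CD61- plate 1. The pair named above for its shared start was also tied across cells: 55 cells held both genes, 10 Col4a1 alone, 1 Col4a2 alone and 22 neither. Their rho was 0.65 over 88 cells and 0.84, 0.74, 0.48 and 0.54 within the CD61+ plates 1 and 2 and the CD61- plates 1 and 2. Per kb, Col4a1 over Col4a2 was 3.80 in CD61+ cells and 2.75 in CD61- cells, with 2.61 in VCAM1+ cells. Endothelial cells also make type IV collagen. The endothelial list of 10 markers summed to 960 CPM in CD61+ cells and 216 CPM in CD61- cells, with 1540 CPM in VCAM1+ cells. By plate the sums overlapped, at 1662 and 233 CPM in CD61+ cells, against 11.6 and 491 CPM in CD61- cells. The median cell of both CD61 gates was at 0 for this list. Cdh5, the defining gene of the list, was at 10 CPM or more in 4 cells. Of these, CD61+ cell 29 held 1212 CPM of Col4a1 beside 278 CPM of Cdh5, and CD61- cell 38 held 266 CPM of Cdh5 and no Col4a1.

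Col8a1 (chr16:57624258-57754737, minus strand), the alpha 1 chain of type VIII, was the abundant member that was lower in both CD61+ plates. It had 213 and 219 CPM in the CD61+ plates, against 282 and 366 CPM in the CD61- plates, 0.678-fold over the gates. Cells overlapped widely, with 26 of 39 CD61+ cells (0 to 1325 CPM, median 84.1) and 29 of 40 CD61- cells (0 to 1286 CPM, median 133). Its partner Col8a2 was nearly missing: 7 cells held both chains and 52 held Col8a1 alone, and per kb the level of Col8a1 was 52.4 times that of Col8a2 in CD61+ cells and 173 times in CD61- cells, with 4.58 times in VCAM1+ cells. Few cells set these ratios: without 1 cell of the gate they reached 88.3 in CD61+ cells and 3705 in CD61- cells, and 2.97 in VCAM1+ cells.

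In type VI collagen, the beaded filament around cells, Col6a3 was spread over the cells unlike Col6a1 and Col6a2. Col6a1 had 128 and 266 CPM in the CD61+ plates, against 258 and 196 CPM in the CD61- plates, and Col6a2 had 88.9 and 185 CPM in the CD61+ plates, against 203 and 132 CPM in the CD61- plates. Both were widespread: Col6a1 was held by 33 of 39 CD61+ cells and 32 of 40 CD61- cells, and Col6a2 by 34 of 39 CD61+ cells and 35 of 40 CD61- cells. The ratios of the gates were 0.845 for Col6a1 and 0.788 for Col6a2, and without CD61+ plate 2 their log2 ratios were -0.86 and -0.96, against -0.24 and -0.34. Without CD61+ plate 1 they were 0.20 and 0.10, so no direction is given for these 2 chains.

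Col6a3, the alpha 3 chain that completes the usual type VI trimer, differed more between the gates. It had 111 and 81.5 CPM in the CD61+ plates, against 15.0 and 7.72 CPM in the CD61- plates, 8.11-fold over the gates (7.61 to 8.65). It was held by 20 of 39 CD61+ cells, up to 1213 CPM, and by 5 of 40 CD61- cells, up to 331 CPM. CD61- cell 22 gave 50.8% of the CD61- counts, and the ratio was 15.96-fold without it. Of the 71 cells that held Col6a1, 47 held no Col6a3, and rho between the chains was -0.01, against 0.48 between Col6a1 and Col6a2. Per kb, the level of Col6a1 was 5.00 times that of Col6a3 in CD61+ cells and 48.0 times in CD61- cells, with 13.16 times in VCAM1+ cells, and 93.7 times in CD61- cells without CD61- cell 22. The alternative chains Col6a5 and Col6a4 were rare: Col6a5 was held by 0 of 39 CD61+ cells and 6 of 40 CD61- cells, with sums of 0.222 CPM in CD61+ cells and 6.09 CPM in CD61- cells, and every CD61- count of Col6a4 came from CD61- cell 5.

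Among the 4 FACIT chains compared, which decorate fibrils, 3 were higher in both CD61+ plates, against 19.9% of all genes. Col12a1, the type XII chain, had 152 and 123 CPM in the CD61+ plates, against 61.9 and 55.4 CPM in the CD61- plates, 2.32-fold (2.25 to 2.40), with 28 of 39 CD61+ cells (median 101 CPM) and 17 of 40 CD61- cells (median 1.57 CPM). Col16a1, the type XVI chain, had 79.8 and 83.7 CPM in the CD61+ plates, against 19.5 and 23.5 CPM in the CD61- plates, 3.86-fold (3.66 to 4.06), with 21 of 39 CD61+ cells and 8 of 40 CD61- cells. For these 2 genes no single cell or plate moved the ratio by more than 1.5 times. Col22a1, the type XXII chain, was lower in level, with 22.1 CPM in CD61+ cells and 6.87 CPM in CD61- cells.

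Col13a1 (chr10:61838236-61979108, minus strand), a transmembrane collagen, was close to a present-or-absent gene. It had 42.4 and 63.7 CPM in the CD61+ plates, against 6.83 and 0 CPM in the CD61- plates, 13.5-fold over the gates (12.1 to 15.1). It was held by 11 of 39 CD61+ cells (up to 303 CPM), 1 of 40 CD61- cells and 1 of 9 VCAM1+ cells. All CD61- counts came from CD61- cell 2, at 149 CPM. Without that cell the gate had no count. The ratio of Col13a1 was then 1576-fold, a value set by the floor of 3 counts over the gate and not a lower limit. That same cell held the highest Col2a1 of all cells and 159690 CPM of Spp1.

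The other members were low in both CD61 gates. Col15a1, a multiplexin, had 20 counts in CD61+ cells, all in CD61+ cell 7, no count in CD61- cells and 48.1 CPM in VCAM1+ cells, of which VCAM1+ cell 2 gave 88.9%. Summed levels of Col5a3, Col4a6, Col8a2, Col9a2, Col14a1, Col23a1, Col25a1, Col18a1 and Col26a1 ran from 0 to 31.1 CPM in CD61+ cells and from 0 to 15.5 CPM in CD61- cells. Of these, Col5a3 was higher in both CD61+ plates (45.7 and 16.02 CPM, against 10.53 and 14.5 CPM in CD61- plates), as were Col8a2 and Col4a6 at under 5 CPM. For Col8a2 this was close, with 2.68 CPM in CD61+ plate 2 against 2.60 CPM in CD61- plate 1. Col4a6 had 11 counts, all in CD61+ cells, and no cell reached 10 CPM.

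Collagens were then read against Cxcl12 and Spp1 in each cell. At a level of 1000 CPM for both, 16 cells held Spp1 only, 14 held both genes, 47 held Cxcl12 only and 11 held neither. Of the Spp1-only cells 13 were CD61+, 2 were CD61- and 1 was VCAM1+, and of the Cxcl12-only cells 13 were CD61+, 31 were CD61- and 3 were VCAM1+. These are ranges of 2 genes and not cell types; 4 cells lay within 2-fold of the Cxcl12 level and 6 within 2-fold of the Spp1 level. Total counts overlapped, at 1332329 to 6037042 in Spp1-only cells (median 2357191), 824954 to 3432112 in cells with both (median 1877432) and 507713 to 4991550 in Cxcl12-only cells (median 2052450). Spp1 took up to 33.1% of the counts of a cell, which lowers the CPM of every other gene there.

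**Figure D3:**
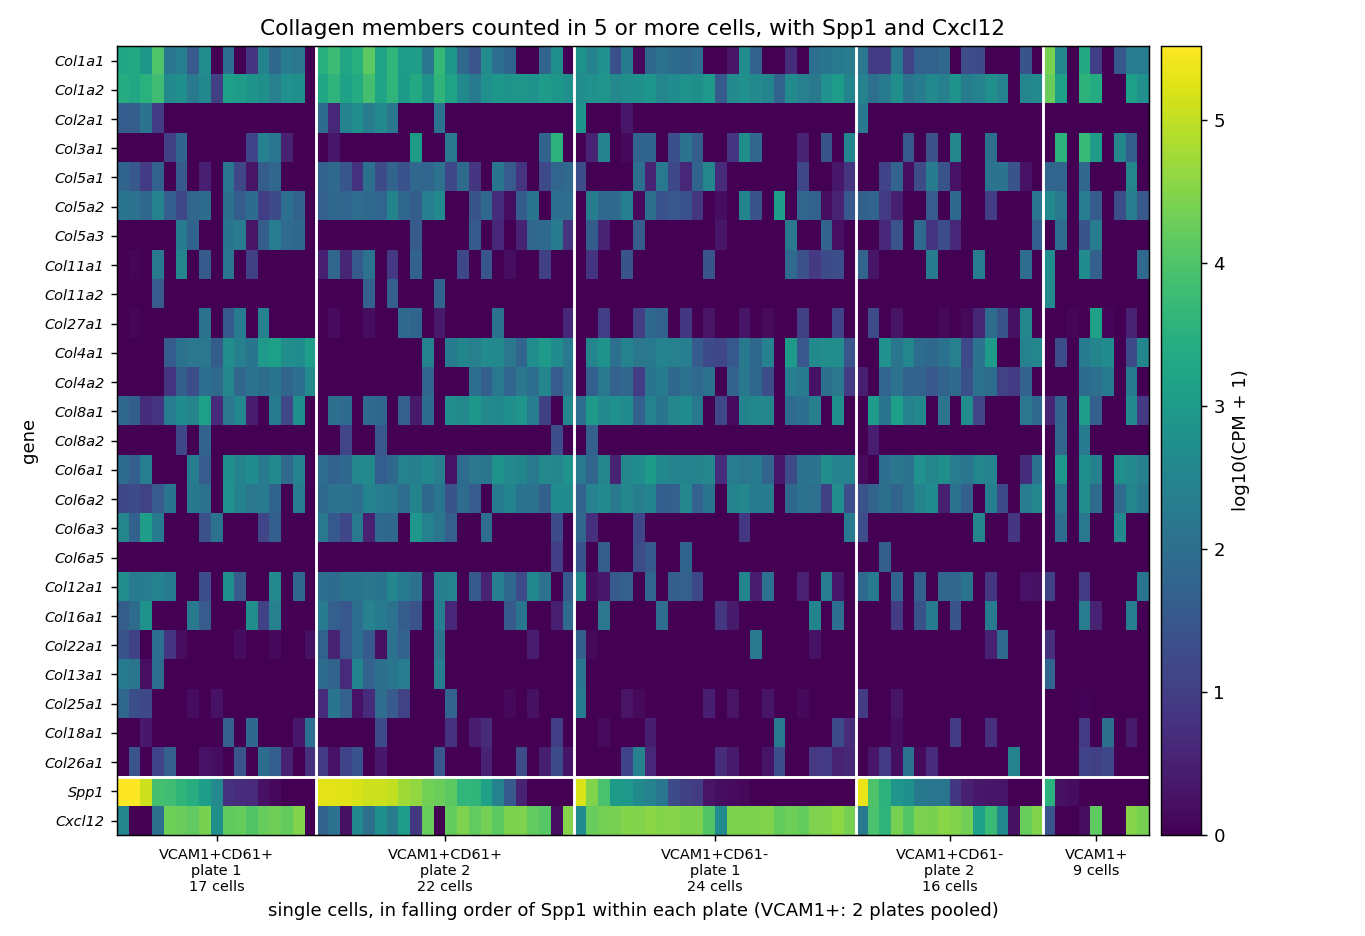
Level, as log10(CPM + 1), of 25 members held by 5 or more cells, with Spp1 and Cxcl12 in the bottom rows; columns are 88 cells by gate and plate, sorted by falling Spp1 within each. In both CD61+ plates the cells at the left, with the highest Spp1, show bright Col1a1, Col1a2, Col2a1 and Col13a1 and dark Col4a1 and Col4a2.

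The most widespread members were held on both sides: Col1a2 by 16 of 16 Spp1-only cells and 47 of 47 Cxcl12-only cells, Col6a2 by 15 of 16 and 43 of 47, and Col6a1 by 13 of 16 and 44 of 47. Other members differed. Col1a1 was held by 16 of 16 Spp1-only cells with a median of 2734 CPM, by 12 of 14 cells with both genes (median 187 CPM) and by 31 of 47 Cxcl12-only cells (median 50.3 CPM). Col2a1 was held by 12 of 16 Spp1-only cells and by 0 of the other 72 cells at this level, and Col13a1 by 12 of 16 Spp1-only cells, 1 of 14 cells with both genes and 0 of 47 Cxcl12-only cells. The 1 cell with both genes that held Col13a1 lay at the edge, CD61+ cell 3, with 1101 CPM of Cxcl12. Col6a3 was held by 14 of 16 Spp1-only cells and 5 of 47 Cxcl12-only cells, Col12a1 by 16 of 16 Spp1-only cells and 25 of 47 Cxcl12-only cells, and Col22a1 by 10 of 16 Spp1-only cells and 1 of 47 Cxcl12-only cells.

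Type IV chains went the other way between Spp1-only and Cxcl12-only cells. Col4a1 was held by 0 of 16 Spp1-only cells, by 12 of 14 cells with both genes (median 227 CPM) and by 46 of 47 Cxcl12-only cells (median 250 CPM). Taking cells pooled over gates as independent draws, which was not shown, 0 of 16 would allow a share of up to 18.8%. No Spp1-only cell had a single count of Col4a1, and 3 counts would stand for 2.25 CPM in the shallowest of them. Col4a2 was held by 0 of 16 Spp1-only cells, 9 of 14 cells with both genes and 41 of 47 Cxcl12-only cells. Cells with neither gene also held Col4a1: 3 of 3 CD61+, 1 of 3 CD61- and 3 of 5 VCAM1+ cells, at up to 1212 CPM. With the level for Cxcl12 and Spp1 set at 5000 CPM, Col4a1 was held by 0 of 16 Spp1-only cells and 51 of 52 Cxcl12-only cells, and at 100 CPM by 0 of 7 and 36 of 38. At 100 CPM, Col13a1 and Col2a1 were held by 9 and 7 of the 35 cells then counted as having both genes, and by 0 of 38 Cxcl12-only cells.

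**Figure D4:**
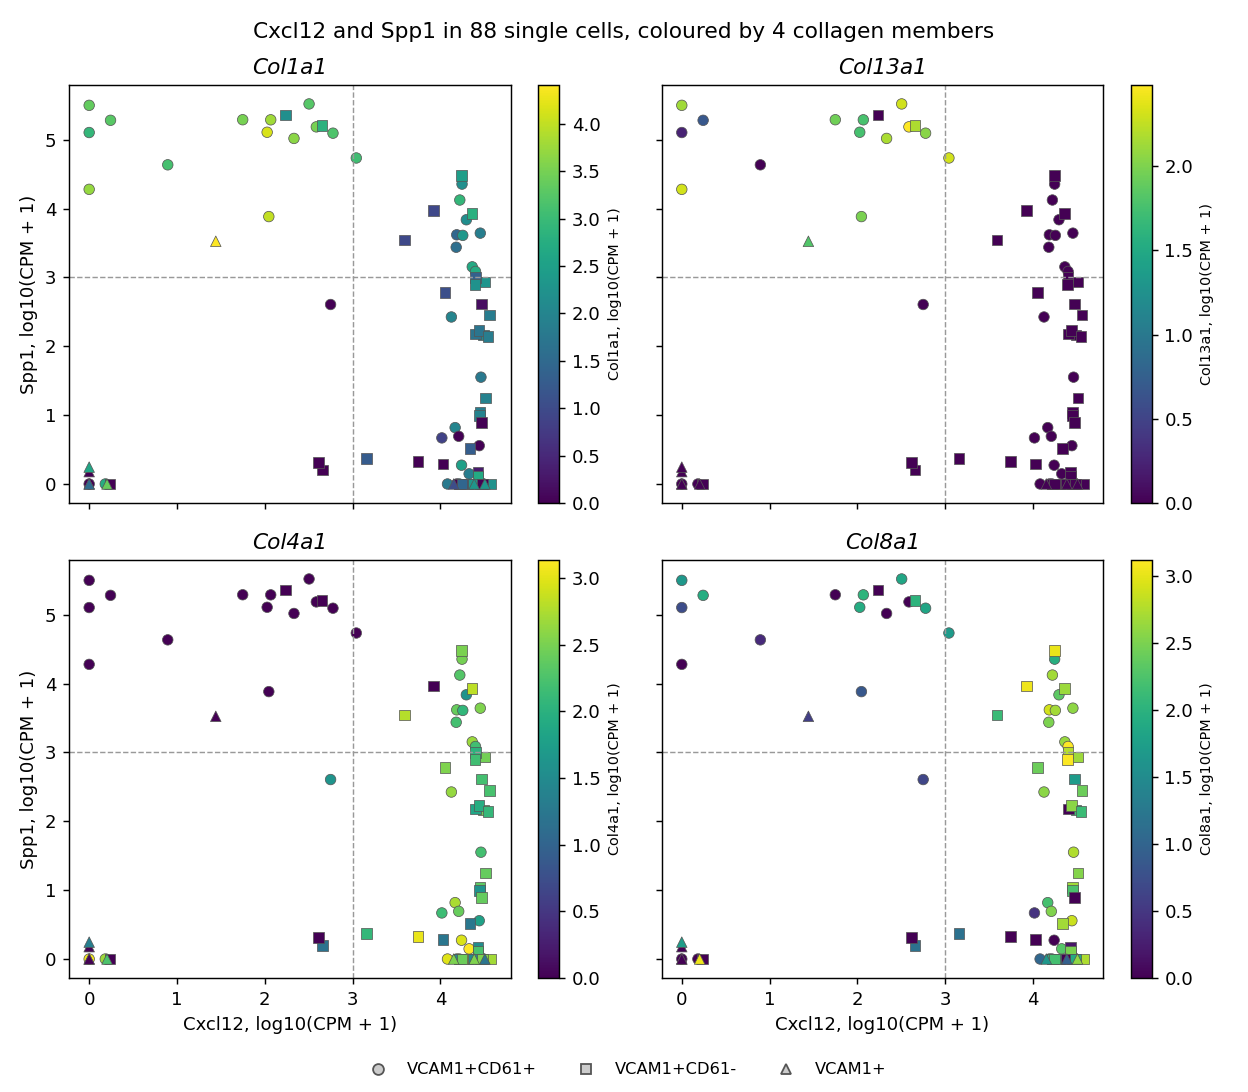
Cxcl12 (x axis) and Spp1 (y axis), both log10(CPM + 1), in 88 cells, with dashed lines at 1000 CPM, circles for CD61+, squares for CD61- and triangles for VCAM1+ cells; colour is the level of Col1a1, Col13a1, Col4a1 or Col8a1. Col13a1 is bright at the upper left and at 0 among the Cxcl12-only cells, Col4a1 is at 0 in all 16 cells of the upper left, and Col8a1 is brightest at the right.

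Within a range of Cxcl12 and Spp1, cells of the gates could be set side by side. Among Cxcl12-only cells, Col1a1 had a median of 61.1 CPM in 13 CD61+ cells and 49.6 CPM in 31 CD61- cells, and Col1a2 a median of 704 CPM in CD61+ cells and 416 CPM in CD61- cells. Among Spp1-only cells, Col1a1 ran from 818 to 14135 CPM in 13 CD61+ cells and was 151 and 649 CPM in the 2 CD61- cells, so all of those CD61+ cells lay above the CD61- cells. Col4a1 was higher in the Cxcl12-only CD61+ cells, with a median of 486 CPM, against 168 CPM in the Cxcl12-only CD61- cells, though the cells overlapped, at 60.9 to 1365 CPM in CD61+ cells and 0 to 1079 CPM in CD61- cells. Col8a1 had its highest medians in cells with both genes, 412 CPM in 10 CD61+ cells and 740 CPM in 4 CD61- cells. The 11 cells with neither gene were mixed: CD61+ cell 20 and VCAM1+ cells 2 and 9 held 13, 18 and 13 members and high Dcn, while VCAM1+ cell 1 held 0 members.

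The rank correlations over all 88 cells summarise the same values without a set level, so they are not separate support. With Spp1, rho was 0.63 for Col2a1, 0.62 for Col13a1, 0.55 for Col1a1, 0.49 for Col25a1 and 0.43 for Col12a1, and it was -0.46 for Col4a1 and -0.47 for Col4a2. With Cxcl12, rho was 0.52 for Col8a1, 0.43 for Col4a1 and 0.42 for Col4a2, and it was -0.51 for Col6a3, -0.49 for Col13a1 and -0.43 for Col2a1. Within plates the values differed by gate. Col1a1 with Spp1 had 0.59 and 0.84 in the CD61+ plates and 0.37 and 0.52 in the CD61- plates. Col4a1 with Spp1 had -0.88 and -0.82 in the CD61+ plates, but -0.01 and -0.15 in the CD61- plates, where 2 cells were Spp1-only. Col8a1 kept 1 sign with Cxcl12, at 0.66 and 0.78 in the CD61+ plates and 0.38 and 0.35 in the CD61- plates. Col1a1 with Cxcl12 did not, at -0.12 and -0.77 in the CD61+ plates and 0.16 and 0.24 in the CD61- plates, with -0.23 over all cells.

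**Figure D5:**
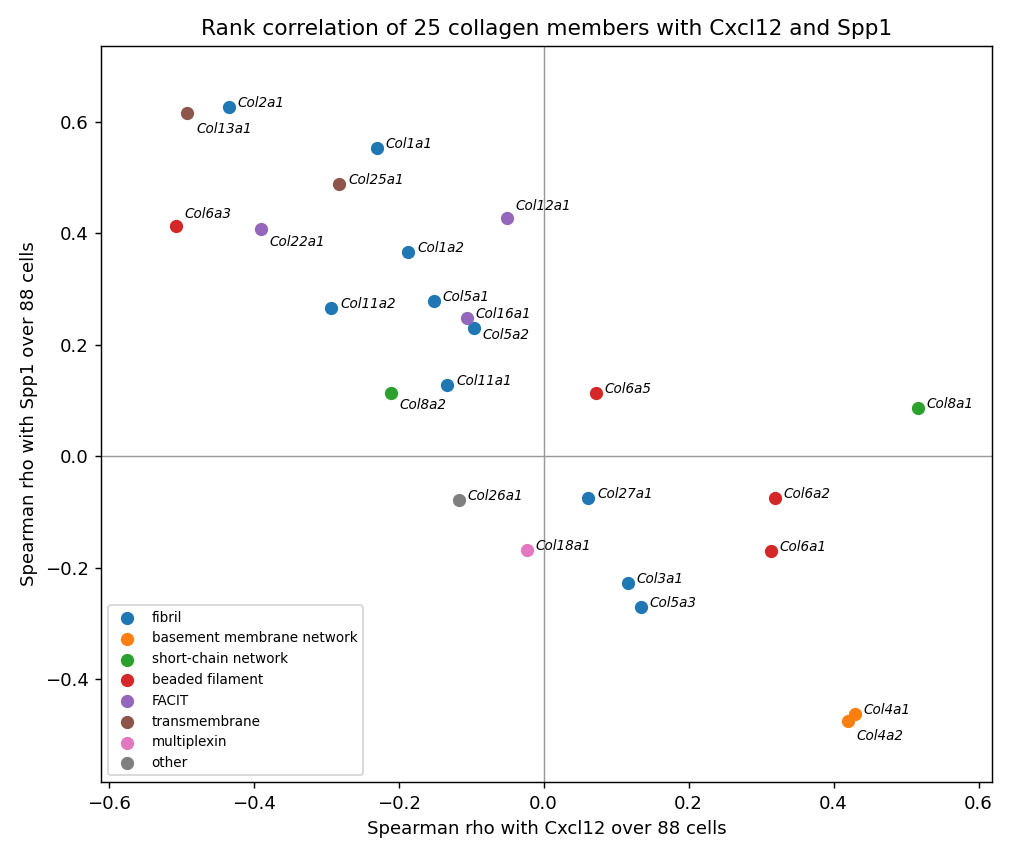
Spearman rho over 88 cells of 25 members with Cxcl12 (x axis) and with Spp1 (y axis), coloured by structural class. Col2a1, Col13a1, Col1a1, Col25a1, Col22a1 and Col6a3 lie at the upper left, Col4a1 and Col4a2 at the lower right and Col8a1 alone at the far right near 0 for Spp1.

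The index-sort record let the members be read against surface protein in the same cell. CD200, a glycoprotein of the cell surface, went with several Spp1-side collagens when cells of all gates were pooled. Over 88 cells, rho with CD200 intensity was 0.61 for Col13a1, 0.58 for Col2a1, 0.56 for Col1a1 and 0.52 for Col6a3, and -0.39 for Col4a1. Within plates, Col1a1 had 0.29 and 0.85 in CD61+ cells and 0.42 and 0.39 in CD61- cells. Col4a1 had -0.64 and -0.73 in CD61+ cells, but 0.02 and -0.39 in CD61- cells. For Col12a1, at 0.39 over all cells, the plates had -0.03 and 0.36 in CD61+ cells and 0.20 and 0.46 in CD61- cells. Against CD61 intensity, on which the gates were split, Col1a1 had a rho of 0.38 over all cells but 0.04, 0.29, -0.07 and 0.22 within the plates in the same order. Forward scatter, a proxy of size, gave Col1a1 a rho of 0.50 over all cells and 0.61, 0.39, 0.09 and 0.50 within the plates.

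Single cells stood out for their collagen load. VCAM1+ cell 5 gave the highest collagen share, 4.49% of its counts, with 25753 CPM of Col1a1 and 17741 CPM of Col1a2 and no Col3a1, beside 297552 CPM of Bglap, the osteocalcin gene of mature osteoblasts. It gave 88.9% of the Col1a1 counts, 72.6% of the Col1a2 counts and all Col11a2 counts of the VCAM1+ gate, so that gate's type I level is largely 1 cell. CD61+ cell 8 followed with 2.40%, with 14135 CPM of Col1a1 and 128374 CPM of Spp1, and CD61+ cell 36 with 1.78%. VCAM1+ cell 2 held 18 members, the most of any cell, with 2386 CPM of Col1a1, 3709 CPM of Col1a2, 5343 CPM of Col3a1 and 16619 CPM of Dcn. Of the 12 cells with the highest collagen share, 3 were VCAM1+, 9 were CD61+ and 0 were CD61-.

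The genes that fold, cut and receive collagen held members higher and lower in CD61+ cells. The collagen machinery was counted as the chains were, against the same background of 19.9% of all genes above and 16.9% below in both plates. Of 21 genes in the table for folding and modification of chains in the endoplasmic reticulum, 7 lay above and 2 below the CD61- plates in both CD61+ plates, 33.3% and 9.52% of them, with a median log2 ratio of -0.01. Serpinh1, the collagen chaperone HSP47, had 1295 and 1667 CPM in the CD61+ plates, against 1202 and 819 CPM in the CD61- plates. Fkbp14, a prolyl isomerase, had 47.1 and 47.8 CPM in the CD61+ plates, against 12.2 and 9.74 CPM in the CD61- plates, and Creb3l1, a transcription factor of the secretory pathway that is known to drive type I collagen genes in bone, had 98.0 and 76.1 CPM in the CD61+ plates, against 34.8 and 21.6 CPM in the CD61- plates. P3h2, a prolyl 3-hydroxylase known for type IV collagen, was lower, with 38.3 and 26.98 CPM in the CD61+ plates, against 109 and 77.6 CPM in the CD61- plates. Of 13 genes for procollagen cleavage and cross-linking, 2 were higher and 0 lower in both plates (15.4% and 0%, median 0.29). Both shares were below those of all genes. Bmp1, the C-propeptidase of fibrillar procollagens, had 130 and 285 CPM in the CD61+ plates, against 67.0 and 52.2 CPM in the CD61- plates, while Lox, the cross-linking enzyme, overlapped. Of 10 collagen receptors, 2 were higher and 1 lower in both plates (20% and 10%, median 0.01), so the share above was near that of all genes. The receptor kinase Ddr2 overlapped, with 199.9 and 234 CPM in CD61+ plates and 333 and 115 CPM in CD61- plates.

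The genes most like 3 members were looked up by rho among the 8765 genes detected in 25% or more of the 88 cells. For Col1a1 these were Col1a2 (0.65), then Cpe, a peptide-processing enzyme (0.62), Fam20c, a kinase of secreted mineral proteins (0.62), Lum, a proteoglycan that binds fibrils (0.61), and Postn, a matrix protein of periosteum (0.61). For Col4a1 they were Col4a2 (0.65), Fstl1 (0.58), Gm4951 (0.57), Igfbp7 (0.56) and Lamb1, a laminin chain of basement membranes (0.56). For Col8a1 they were Igfbp4 (0.68), Islr (0.64), Gas6 (0.59), Cxcl14 (0.58) and Fbln5, an elastic fibre protein (0.57). For both Col1a1 and Col4a1, the partner chain of the same trimer ranked first.

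The marker lists differed between the gates as well. CAR markers were lower in both CD61+ plates in 7 of 7 cases, against 16.9% of all genes. They summed to 13246 CPM in CD61+ cells and 30699 CPM in CD61- cells. Of 9 osteolineage markers, 6 were higher and 1, Phex, lower in both CD61+ plates, against 19.9% and 16.9% of all genes. These markers summed to 78362 CPM in CD61+ cells and 19412 CPM in CD61- cells. Spp1 alone made 67350 CPM in CD61+ cells and 12267 CPM in CD61- cells. Blood cell markers summed to 645 CPM in CD61+ cells and 219 CPM in CD61- cells, of which Fcer1g, a receptor chain of mast and other myeloid cells, made 632 CPM in CD61+ cells and 98.3 CPM in CD61- cells, with Ptprc at 0.117 CPM in CD61+ cells and 12.1 CPM in CD61- cells. Erythroid markers summed to 379 CPM in CD61+ cells and 130 CPM in CD61- cells, Schwann cell markers to 129 CPM in CD61+ cells and 101 CPM in CD61- cells, smooth muscle and pericyte markers to 69.2 CPM in CD61+ cells and 21.0 CPM in CD61- cells, and megakaryocyte markers to 9.26 CPM in CD61+ cells and 4.74 CPM in CD61- cells. Beyond the values given within a range of Cxcl12 and Spp1, the part of the mix of cells in the ratios of the gates was not tested, and fewer cells holding a gene and less RNA per cell are both contained in a summed CPM.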

How the data were processed

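Expression was measured in 91 single cells by Smart-seq2. The authors deposited expected counts per gene and cell, per the submitters' processing notes with kallisto 0.43.0 (build mm10; also R 3.5.1). Their annotation is not stated in the sources, and 0 values were not whole numbers. The count of reads per cell, as deposited by the authors, equals the column sum in 91 cells. Index-sort values are linear intensity values as deposited; 43 of the columns beside them were not used.

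Counts were summed per gate and plate and put on the CPM scale. Genes needed 10 counts over the 4 plates. Log2 ratios used a floor of 3 counts per gate. Ratios have exact binomial intervals. Spearman's rho used CPM per cell. Members were named in full at 50 CPM in any gate, or at 4-fold with 100 counts. No doublet caller was run and no cell was removed. Transcript lengths and positions came from GENCODE vM21 (mm10), where 31 members matched. Python 3.11.15, pandas 2.3.3, scipy 1.17.1, R 4.3.3, edgeR 4.0.16 (TMM) and DESeq2 1.42.0 (size factors) were used, and the steps were tested on simulated data. Members, lists and rules were chosen with earlier results of these data known.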

Additional observations from a re-analysis of the deposited data

How the results depend on the processing

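No paired analysis was possible because no label names an animal or pairs cells of different gates. Scaling by TMM or DESeq2 size factors moved the median log2 ratio of all genes by less than 0.1, and the count of members at least 2-fold higher in CD61+ cells was 15 and 16 with them. That count was 12 with every cell thinned to 500000 counts, 13 without the Dcn-high cells (added after the data were seen), and 12 to 19 when 1 plate was left out. The count at least 2-fold lower ran from 1 to 5 and the count lower in both plates from 1 to 8 when a plate or cell was left out, where fewer plates make separation easier. Without CD61- plate 1 the median of all genes moved by 0.32. The log2 ratio of summed collagen CPM was 1.38 to 1.89 over the alternatives, and 1.25 to 2.07 over the 4 pairs of 1 CD61+ and 1 CD61- plate. The rho of Col1a1 with Spp1 was 0.84 within CD61+ plate 2, and that of Col1a1 with Cxcl12 was -0.77 there and 0.16 and 0.24 within the CD61- plates; the cause was not tested. Signs turned for Col2a1 without CD61+ plate 2 (leave-one-out range of its log2 ratio -0.73 to 3.33), Col27a1 without CD61+ plate 1 (-0.14 to 1.70) and Col6a4 without CD61- plate 1 (1.35) or CD61- cell 5 (-5.48 to 2.55). Under some alternative the sign also turned for Col3a1 (-2.53 without the Dcn-high cells, 0.92 with them), Col4a1, Col4a2, Col5a2, Col6a1 and Col6a2, and in 1 pair of plates for Col5a1 (-0.37) and Col11a1 (-0.29). Of the 21 members named in full, 12 kept 1 sign over the alternatives and 10 also over the pairs of plates. Of those 21 members, 9 moved by over 1.5 times on leaving out 1 cell. Counts of cells near the 10 CPM level are limited by depth.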
